A study of Mus musculus with 8 samples.

Results

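The genes described here are 31 regulators, targets and effectors of the p53 and apoptosis pathway, chosen by gene symbol from a deposited expression table of 18561 genes. All 31 were in the table and all 31 passed the filter on low counts in both comparisons below. They were measured in 8 libraries of enteric neural crest cells, which give rise to the gut's own nervous system, from mouse gastrointestinal tracts at embryonic day 14.5. The cells were sorted with antibodies against CD271 and CD57, with about 200 cells in a tube, and amplified full-length cDNA was sequenced. 5 libraries were labelled Emb knockdown (kd 1 to kd 5) and 3 were labelled WT (WT 1 to WT 3). By their labels both groups shared the age, the tissue and the sort antibodies. The sources used here name no strain, sex, litter or method of knockdown. No label ties a library to its own animal, so the p-values rest on library-to-library spread that could be technical only.

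p53, the protein encoded by Trp53, is a transcription factor that accumulates after DNA damage and other stress. It switches on genes that stop the cell cycle, repair DNA or start cell death, and it is held in check by MDM2 and MDM4. Death through mitochondria is decided within the BCL2 family, where BH3-only proteins free the pore formers BAX and BAK from their anti-apoptotic relatives, and released cytochrome c then assembles the apoptosome. Neural crest cells of the mouse embryo are known for their sensitivity to excess p53, as in the Tcof1 model of Treacher Collins syndrome.

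The libraries held 20116607 to 26959265 expected counts, and between 15079 and 17049 genes had at least 1 count. Levels below are CPM (read counts scaled to library size, with TMM composition factors) unless FPKM is named. Emb, the targeted gene, was at 353 and 349 CPM in kd 1 and kd 2, at 21.4 to 37.2 CPM in kd 3 to kd 5 and at 15.9 to 17.7 CPM in WT, so each library labelled knockdown had more Emb than each WT library. All directions below are therefore differences between library labels. Summed over 20 leukocyte markers, the level was 36559 and 30782 CPM in kd 1 and kd 2, 1739 to 3081 CPM in kd 3 to kd 5 and 551 to 825 CPM in WT. Summed over 14 enteric neural crest progenitor markers, it was 416 and 363 CPM in kd 1 and kd 2, 1206 to 1499 CPM in kd 3 to kd 5 and 3221 to 3366 CPM in WT. Of the progenitor markers, 1 was at 0 in kd 1 and 4 were at 0 in kd 2, and Sox10, Foxd3, Tlx2 and Tfap2b were each at 0 in at least 1 of these libraries. Among these markers Ngfr encodes the sort antigen CD271. It was at 1.55 and 2.17 CPM in kd 1 and kd 2 and at 14.1 to 23.6 CPM in kd 3 to kd 5. In WT Ngfr was at 83.3 to 208 CPM, without overlap. The 10 neuron markers summed to 12.9 and 12.6 CPM in kd 1 and kd 2, 655 to 1131 CPM in kd 3 to kd 5 and 1681 to 2218 CPM in WT. The 10 endothelium markers summed to 82.4 and 74.1 CPM in kd 1 and kd 2, 109 to 208 CPM in kd 3 to kd 5 and 504 to 705 CPM in WT. The 10 gut mesenchyme markers summed to 112 and 809 CPM in kd 1 and kd 2, 6565 to 7471 CPM in kd 3 to kd 5 and 3557 to 4727 CPM in WT. The 8 gut epithelium markers summed to 24.8 and 12.7 CPM in kd 1 and kd 2, 304 to 1322 CPM in kd 3 to kd 5 and 364 to 925 CPM in WT. The 6 mast cell markers summed to 1543 and 4505 CPM in kd 1 and kd 2, 32.2 to 272 CPM in kd 3 to kd 5 and 11.0 to 622 CPM in WT. The 7 erythroid markers summed to 57.5 and 54.4 CPM in kd 1 and kd 2, 805 to 3228 CPM in kd 3 to kd 5 and 1477 to 4646 CPM in WT. The leukocyte, progenitor, neuron and endothelium sums thus did not overlap between the labelled groups in either comparison below, and the mesenchyme sum did not overlap with 6 libraries but did with 8. Their part in the results was not tested. In such bulk libraries, fewer cells of a type and less RNA per cell cannot be told apart. Because kd 1 and kd 2 stood apart, the tests were run with all 8 libraries and with the 6 libraries that leave them out.

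Several of these genes are textbook p53 targets, so the promoters in the table of RefSeq sequences (GRCm38.p6) were searched for the p53 response element. The table held 34 windows for 24 of the 31 genes, each covering 250 bases before to 50 bases after an annotated start. A window was counted when it held 20 bases that matched the p53 response element consensus, without a spacer, at 17 or more positions and with all of its fixed C and G. The consensus reads the same on both strands. Such a match was found in 7 windows (20.6%) of 6 of the genes, against 1.38% of 32851 windows of all genes. The 4 windows below are shown because Cdkn1a was called higher, Aen was called lower and Ccng1 and Bbc3 were not called in the results below, with the match in capitals.

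Cdkn1a, chr17:29090729-29091028, plus strand: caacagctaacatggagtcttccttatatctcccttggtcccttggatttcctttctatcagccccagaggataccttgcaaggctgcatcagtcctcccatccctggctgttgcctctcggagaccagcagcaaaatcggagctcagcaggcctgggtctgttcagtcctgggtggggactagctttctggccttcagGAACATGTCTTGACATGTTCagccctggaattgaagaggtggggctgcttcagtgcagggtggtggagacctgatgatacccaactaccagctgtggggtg

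Ccng1, chr11:40755237-40755536, minus strand: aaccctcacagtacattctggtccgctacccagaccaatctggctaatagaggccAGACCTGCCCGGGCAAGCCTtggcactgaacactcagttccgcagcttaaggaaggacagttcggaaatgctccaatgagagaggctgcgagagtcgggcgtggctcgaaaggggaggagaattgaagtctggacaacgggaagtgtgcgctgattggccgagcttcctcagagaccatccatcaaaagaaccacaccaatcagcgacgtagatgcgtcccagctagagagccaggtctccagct

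Aen, chr7:78895808-78896107, plus strand: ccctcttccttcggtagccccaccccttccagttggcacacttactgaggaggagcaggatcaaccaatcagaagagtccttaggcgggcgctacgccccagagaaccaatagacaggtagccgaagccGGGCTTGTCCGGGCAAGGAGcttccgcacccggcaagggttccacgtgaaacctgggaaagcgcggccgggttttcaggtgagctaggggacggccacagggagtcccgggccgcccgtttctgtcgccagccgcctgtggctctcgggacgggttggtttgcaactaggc

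Bbc3, chr7:16309333-16309632, plus strand: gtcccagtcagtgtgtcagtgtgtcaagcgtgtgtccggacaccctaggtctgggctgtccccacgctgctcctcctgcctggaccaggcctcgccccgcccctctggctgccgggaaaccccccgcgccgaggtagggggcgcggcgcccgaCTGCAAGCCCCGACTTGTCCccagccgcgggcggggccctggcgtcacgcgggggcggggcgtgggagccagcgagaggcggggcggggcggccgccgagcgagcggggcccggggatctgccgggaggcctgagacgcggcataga

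The Cdkn1a match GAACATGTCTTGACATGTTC lies at chr17:29090928-29090947, begins 51 bases before the annotated start of this window and meets the consensus at 19 positions. It was the 1 window of these genes with the letters CATGNNNNNNCATG, which 0.712% of all windows hold. The Ccng1 match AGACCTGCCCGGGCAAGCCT also meets it at 19 positions, a level reached in 22 windows of all genes. The matches in Aen and Bbc3 meet it at 17 positions, as do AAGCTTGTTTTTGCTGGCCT in Sesn1 and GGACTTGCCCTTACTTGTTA in Trp53. A match is a run of letters and not a measurement of binding. The levels of these 6 genes are given with their groups below and did not move together.

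With all 8 libraries none of the 31 genes passed the threshold of 0.05 for the p-value of edgeR's quasi-likelihood test after Benjamini-Hochberg adjustment, which took in all 15411 tested genes. The background was the same, with 0% of all genes called. At an unadjusted p under 0.05 there were 7 of the 31 genes, all higher in the libraries labelled knockdown, where 12.7% of all genes were higher and 5.9% lower. Those 7 were Cdkn1a, Btg2, Sesn1, Pmaip1, Bcl2l11, Mcl1 and Apaf1. Other tools made calls on the same libraries. DESeq2 called 5 of the 31 genes (16.1%), all higher, against 11.9% of 18394 genes. Those 5 were Cdkn1a, Pmaip1, Bcl2l11, Mcl1 and Apaf1. The DESeq2 run had no prior filter on low counts, so its background took in more low-count genes than that of edgeR. The limma voom test with quality weights called 8 (25.8%), of which 6 were higher and 2 lower, against 24.1% of 15411 genes. Higher by voom were Mdm4, Cdkn1a, Gdf15, Bcl2l11, Mcl1 and Apaf1, and lower were Plk2 and Aen. The median log2 fold change was 0.47 over the 31 genes and 0.07 over all genes tested. The median of the 31 genes was 0.26 without a composition factor, 0.15 with voom and 0.15 on either FPKM scale.

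Without kd 1 and kd 2, 7 of the 31 genes (22.6%) passed the threshold, 5 higher and 2 lower, against 20.4% of the 15115 genes tested. The share of these genes that was called was thus close to the background. By direction, 11.1% of all genes were called higher and 9.37% lower. The genes called higher were Mdm4, Cdkn1a, Pmaip1, Mcl1 and Apaf1, and those called lower were Plk2 and Aen. Of the calls over all genes 54.1% were higher, and 38.4% were higher in the test on log2(FPKM + 1). All 7 calls ended without kd 4 (edgeR adjusted p from 0.0775 to 0.124), where 1.16% of all genes were called. They also all ended without WT 3 (0.0651 to 0.171), where 1.9% of all genes were called. Of the 31 genes, 11 (35.5%) were called without kd 3, against 38.9% of all genes. Without kd 5 or WT 1 there were 5 (16.1%), against 10.7% and 8.94% of all genes, and without WT 2 there were 2 (6.45%), against 2.7%. With voom 16 of the 31 genes (51.6%) were called, against 45.5% of all genes. The median log2 fold change was 0.10 over the 31 genes and 0.02 over all genes. For 5 genes, Mdm2, Fas, Bid, Bak1 and Casp9, the direction with 8 libraries was opposite to that with 6.

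**Figure D1:**
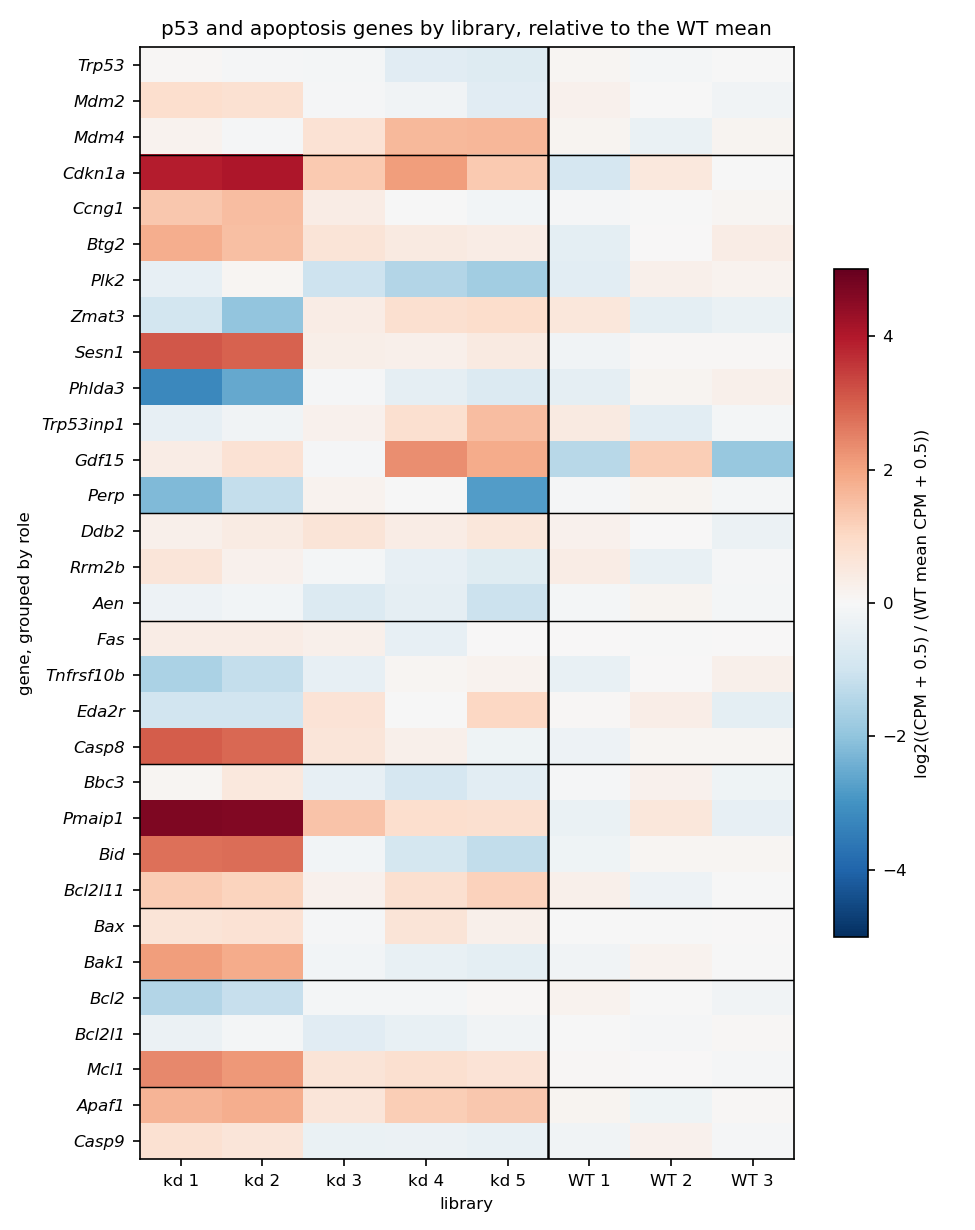
Level of each of the 31 genes (rows, grouped by role) in each library (columns, knockdown left of WT), as log2 of CPM plus 0.5 over the WT mean plus 0.5. Pmaip1 and Cdkn1a (red) lay farthest above WT in kd 1 and kd 2, at 374 and 367 CPM and at 330 and 355 CPM, while Phlda3 (blue) lay below WT there at 3.19 and 5.32 CPM.

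At the head of the pathway, Mdm4 rose without kd 1 and kd 2, and Trp53 and Mdm2 did not pass in edgeR's test. Trp53 was among the most abundant of the 31 genes per length, at 156 ± 4.68 FPKM in WT (SD, n = 3). Its level was 228, 211, 206, 146 and 141 CPM in kd 1 to kd 5, against 235, 205 and 214 CPM in WT 1 to WT 3. The libraries kd 4 and kd 5 lay below every other library and the groups overlapped. The log2 fold change was -0.22 ± 0.22 (SE) with 8 libraries (edgeR adjusted p = 0.637) and -0.40 ± 0.19 with 6 (0.159). With 6 libraries Trp53 was called lower by voom (log2 fold change -0.51, adjusted p = 0.0114) and by edgeR when kd 3 was also left out (-0.61, adjusted p = 0.0091).

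Mdm2, the ubiquitin ligase that marks p53 for destruction and is itself a p53 target, was at 111, 106, 59.5, 55.9 and 42.1 CPM in kd 1 to kd 5, against 72.1, 61.1 and 54.7 CPM in WT. The first pair of libraries lay above all others and kd 5 below all others. The log2 fold change of Mdm2 was 0.26 ± 0.36 with 8 libraries and -0.25 ± 0.20 with 6 (edgeR adjusted p = 0.758 and 0.383).

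Mdm4 (chr1:132986105-133030587, GRCm38.p6), a relative of MDM2 that blocks the activation domain of p53, showed a different order. It was at 40.7, 34.5, 59.0, 111 and 113 CPM in kd 1 to kd 5, against 39.6, 28.3 and 39.7 CPM in WT. The libraries kd 3 to kd 5 lay above WT, while kd 1 and kd 2 lay near WT. Without those 2 libraries Mdm4 rose 2.64-fold (log2 fold change 1.40 ± 0.28, edgeR adjusted p = 0.0151), and the call ended without kd 4 (0.0775), WT 2 (0.0673) or WT 3 (0.0658). With 8 libraries the log2 fold change was 1.00 ± 0.46 (adjusted p = 0.299). Per length, the ratio of Mdm4 FPKM to Mdm2 FPKM was 0.155, 0.139, 0.419, 0.892 and 1.23 in kd 1 to kd 5 and 0.237, 0.196 and 0.308 in WT 1 to WT 3. Pseudogenes of both Trp53 and Mdm4 are annotated in mouse, so their counts are uncertain to that extent.

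Among the p53 targets grouped here under arrest and feedback, Cdkn1a rose and Plk2 fell without kd 1 and kd 2, and the other 8 genes of the group did not pass. Cdkn1a (chr17:29090979-29100722) encodes p21, the inhibitor of cyclin-dependent kinases through which p53 halts the cycle. It was at 330, 355, 53.6, 92.3 and 53.3 CPM in kd 1 to kd 5, against 11.5, 31.1 and 21.0 CPM in WT. Every library labelled knockdown lay above every WT library, and kd 1 and kd 2 lay far above the rest. The log2 fold change was 3.06 ± 0.87 with 8 libraries (edgeR adjusted p = 0.157) and 1.65 ± 0.37 with 6 (0.021). The call with 6 libraries ended without kd 4 (adjusted p = 0.101) or WT 3 (0.0839). An exon of another gene model on the opposite strand overlaps it, and the library method does not mark strand.

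Plk2 (chr13:110395044-110400844), a polo-like kinase induced by p53 and by growth stimuli, moved the other way. It was at 105, 148, 66.7, 49.7 and 41.6 CPM in kd 1 to kd 5, against 96.9, 166 and 156 CPM in WT. The libraries kd 3 to kd 5 lay below WT, while kd 1 and kd 2 lay within the WT range. Without them Plk2 fell by 1.40 ± 0.26 on the log2 scale (edgeR adjusted p = 0.0136), a call that ended without kd 4 (0.0778), WT 2 (0.0585) or WT 3 (0.0651). With 8 libraries the log2 fold change was -0.77 ± 0.44 (adjusted p = 0.399).

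Btg2 and Sesn1 were higher in every library labelled knockdown than in every WT library, without passing the threshold. Btg2, an antiproliferative factor that recruits mRNA deadenylases, was at 1546, 1246, 688, 601 and 570 CPM in kd 1 to kd 5, against 307, 440 and 562 CPM in WT. The lowest of the first group and the highest of WT were close. Btg2 had a log2 fold change of 1.09 ± 0.42 with 8 libraries and of 0.51 ± 0.24 with 6 (edgeR adjusted p = 0.227 and 0.150). Sesn1, a sestrin that restrains TOR signalling, was at 207 and 183 CPM in kd 1 and kd 2, at 27.7 to 32.0 CPM in kd 3 to kd 5 and at 20.8 to 24.6 CPM in WT. The difference between the first pair and the rest was much wider than that between kd 3 to kd 5 and WT (log2 fold change 2.04 ± 0.85 with 8 libraries and 0.34 ± 0.19 with 6, edgeR adjusted p = 0.257 and 0.212).

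Ccng1, which encodes cyclin G1, a classic p53 target with the 19-position match shown above, was at 63.9 and 73.1 CPM in kd 1 and kd 2, at 22.0 to 32.2 CPM in kd 3 to kd 5 and at 23.3 to 26.0 CPM in WT. The log2 fold change of Ccng1 was 0.81 ± 0.46 with 8 libraries (edgeR adjusted p = 0.392). Without the first pair the groups overlapped, with a log2 fold change of 0.10 ± 0.21 (0.768). Phlda3, a p53 target that competes with AKT for membrane lipids, was lowest in kd 1 and kd 2, at 3.19 and 5.32 CPM, against 20.8 to 31.9 CPM in kd 3 to kd 5 and 24.3 to 39.8 CPM in WT. Zmat3, an RNA-binding splicing regulator, was also lowest in that pair, at 6.65 and 2.92 CPM, with 17.3 to 24.4 CPM in kd 3 to kd 5 and 9.21 to 19.8 CPM in WT. Neither gene passed in either comparison by edgeR, while with 6 libraries Zmat3 was called higher by voom (adjusted p = 0.00885) and by edgeR when WT 1 was also left out (0.0498).

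Trp53inp1, a cofactor of p53 with a role in autophagy, ranged from 4.74 to 19.6 CPM over kd 1 to kd 5 and from 4.38 to 9.04 CPM in WT. Perp, a desmosome protein first found as an apoptosis target of p53, was at 1.08, 2.64 and 0.553 CPM in kd 1, kd 2 and kd 5, at 7.70 and 6.69 CPM in kd 3 and kd 4, and at 6.20 to 7.54 CPM in WT. Gdf15, a secreted stress factor, was at 1.30 to 8.70 CPM over kd 1 to kd 5 and at 0.217, 3.87 and 0 CPM in WT 1 to WT 3, where a count of 0 allows up to 0.11 CPM. These 3 genes were low and scattered within groups, and none passed in either comparison by edgeR. With 6 libraries Trp53inp1 was called higher by voom (adjusted p = 0.0196) and by edgeR when kd 3 was also left out (0.0306), and Gdf15 was called higher by voom (0.016).

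Of the 3 targets with roles at damaged DNA, Aen fell without kd 1 and kd 2 while Ddb2 and Rrm2b did not pass. Aen (chr7:78895927-78911209), an exonuclease that p53 induces and that enhances apoptosis, was at 39.6, 42.4, 29.1, 34.2 and 22.2 CPM in kd 1 to kd 5, against 44.5, 52.7 and 44.5 CPM in WT. Every library labelled knockdown lay below every WT library. The log2 fold change was -0.50 ± 0.25 with 8 libraries (edgeR adjusted p = 0.342) and -0.73 ± 0.21 with 6 (0.0416). That call ended without kd 4 (adjusted p = 0.0857), kd 5 (0.0819), WT 1 (0.0876), WT 2 (0.158) or WT 3 (0.12). Both annotated starts of Aen share the match printed above.

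Ddb2, the damage sensor of nucleotide excision repair, was at 9.38 to 12.3 CPM over kd 1 to kd 5 and at 6.27 to 9 CPM in WT. The groups did not overlap, with a log2 fold change of 0.48 ± 0.32 with 8 libraries and 0.56 ± 0.28 with 6 (edgeR adjusted p = 0.465 and 0.171). Rrm2b, the p53-inducible subunit of ribonucleotide reductase, overlapped between groups, at 4.61 to 11.2 CPM over kd 1 to kd 5 and 5.51 to 9.47 CPM in WT.

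**Figure D2:**
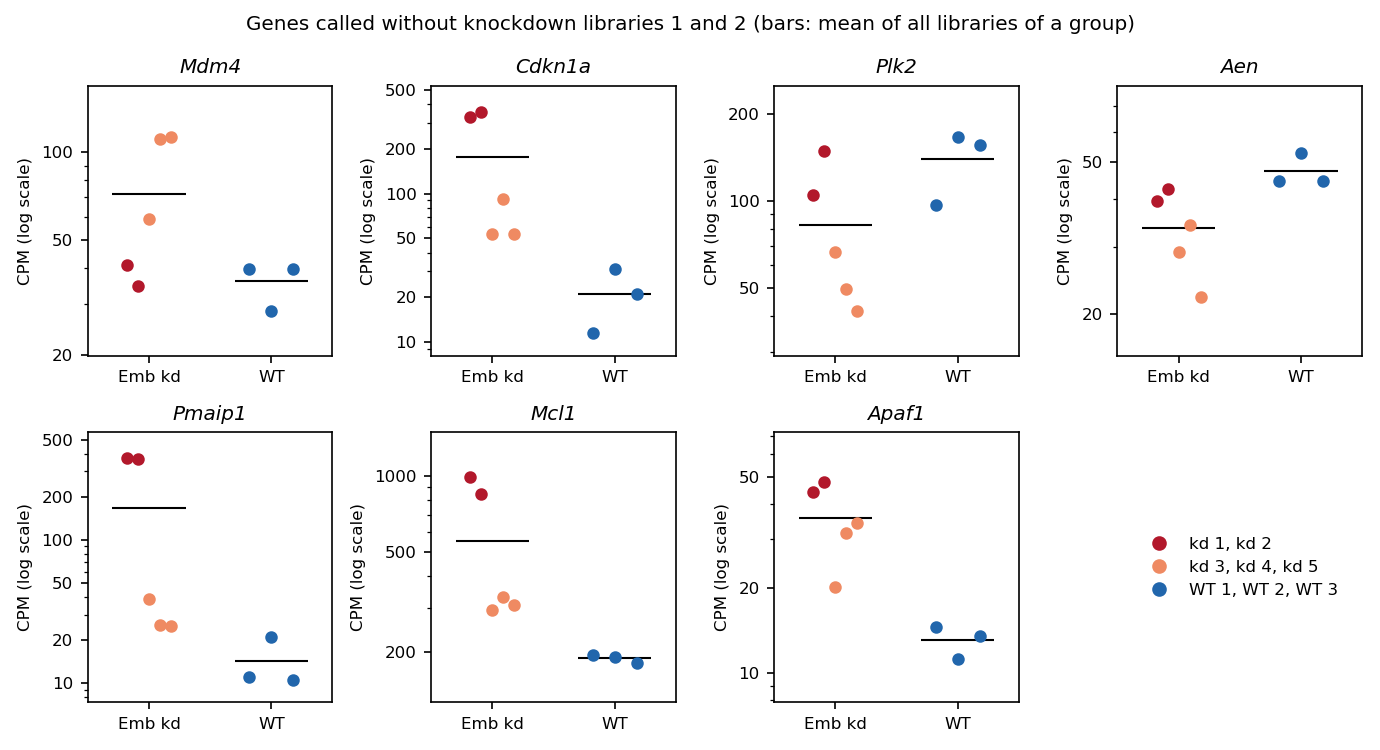
CPM on a log scale for the 7 genes that passed the threshold without kd 1 and kd 2, with each library as a point, knockdown left of WT, and the mean of all libraries of a group as a bar. Mdm4 and Plk2 had kd 1 and kd 2 near the WT libraries, whereas Cdkn1a, Pmaip1, Mcl1 and Apaf1 had them highest, for example at 991 and 845 CPM for Mcl1.

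None of the death receptor genes passed in edgeR's test, and Casp8 was highest in kd 1 and kd 2. Casp8, the initiator caspase of death receptors, was at 232, 207, 42.8, 33.1 and 24.1 CPM in kd 1 to kd 5, against 23.5, 30.2 and 30.2 CPM in WT. Without the first pair its log2 fold change was 0.25 ± 0.25 (edgeR adjusted p = 0.479), against 1.95 ± 0.86 with 8 libraries (0.279). Fas, the receptor of FAS ligand, was low and even, at 1.73 to 3.39 CPM over kd 1 to kd 5 and 2.45 to 2.53 CPM in WT. Tnfrsf10b, the mouse receptor of the death ligand TRAIL, was at 5.72 and 7.58 CPM in kd 1 and kd 2, at 13.5 to 20.5 CPM in kd 3 to kd 5 and at 13.8 to 21.4 CPM in WT. It was lower in the first pair than in every other library. Eda2r, a receptor of ectodysplasin A2, was the least abundant of the 31 genes per length in WT, at 0.468 to 1.48 CPM in kd 3 to kd 5 and 0.183 to 0.709 CPM in WT. It was at 0 in kd 1 and kd 2, where a count of 0 allows up to 0.155 and 0.141 CPM.

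Of the 4 BH3-only genes, Pmaip1 rose without kd 1 and kd 2, and Bbc3, Bid and Bcl2l11 did not pass. Pmaip1 (chr18:66458604-66465558) encodes NOXA, a p53 target that neutralises MCL1. It was at 374, 367, 38.5, 25.5 and 25.1 CPM in kd 1 to kd 5, against 11.1, 21.1 and 10.5 CPM in WT. Every library labelled knockdown lay above every WT library, with kd 1 and kd 2 far above the rest. Its log2 fold change was 3.54 ± 1.23 with 8 libraries (edgeR adjusted p = 0.198) and 1.06 ± 0.32 with 6 (0.0484). That call, the nearest to the threshold, ended without kd 3 (adjusted p = 0.0851), kd 4 (0.124), kd 5 (0.0731), WT 1 (0.146) or WT 3 (0.171). It also ended when no composition factor was used (0.0676), and on log2(FPKM + 1) (0.0607) or log2(FPKM + 0.1) (0.0612).

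Bbc3 encodes PUMA, the BH3-only protein most closely tied to p53. It was at 18.9, 25.8, 13.0, 9.49 and 11.9 CPM in kd 1 to kd 5, against 16.9, 20.7 and 15.2 CPM in WT. The libraries kd 3 to kd 5 lay below WT, with a log2 fold change of -0.62 ± 0.25 (edgeR adjusted p = 0.104), and kd 2 lay above WT. With 8 libraries the log2 fold change was -0.16 ± 0.37 (0.866). Pmaip1 and Bbc3, both p53 targets, thus had fold changes of opposite sign with 6 libraries, and of the pair Pmaip1 passed in edgeR's test, while voom called Bbc3 lower (adjusted p = 0.0341).

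Bid, which links caspase-8 to mitochondria, was at 110 and 113 CPM in kd 1 and kd 2, at 6.41 to 14.3 CPM in kd 3 to kd 5 and at 13.5 to 17.1 CPM in WT. Its log2 fold change was 1.67 ± 1.08 with 8 libraries and -0.70 ± 0.33 with 6 (edgeR adjusted p = 0.453 and 0.152). With 6 libraries Bid was called lower by voom (adjusted p = 0.015) and by edgeR when kd 3 was also left out (0.0146). Its exons overlap those of Bcl2l13 on the other strand. Bcl2l11 encodes BIM, a mediator of death after loss of growth factors, and was at 69.0, 62.2, 33.0, 50.3 and 62.7 CPM in kd 1 to kd 5, against 33.8, 23.7 and 27.6 CPM in WT. Of the libraries labelled knockdown, kd 3 alone lay within the WT range. BIM's gene had a log2 fold change of 0.97 ± 0.29 with 8 libraries and 0.78 ± 0.26 with 6 (edgeR adjusted p = 0.162 and 0.0649). DESeq2 and voom called Bcl2l11 higher in both comparisons, as did edgeR with 6 libraries when kd 3 was also left out (adjusted p = 0.00632).

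Bax, the pore former that p53 induces, was the most abundant of the 31 genes per length in WT, at 213 ± 12.6 FPKM (SD, n = 3). It was at 191, 203, 116, 190 and 147 CPM in kd 1 to kd 5, against 120, 121 and 125 CPM in WT. All but kd 3 lay above WT, and the log2 fold change was 0.47 ± 0.23 with 8 libraries and 0.31 ± 0.20 with 6 (edgeR adjusted p = 0.313 and 0.287). With 6 libraries Bax was called higher by voom (adjusted p = 0.02) and by edgeR when kd 3 was also left out (0.0441). Bak1, the second pore former, was at 199, 172, 42.6, 35.8 and 33.2 CPM in kd 1 to kd 5, against 41.8, 53 and 46 CPM in WT. It was highest in kd 1 and kd 2, with a log2 fold change of 1.04 ± 0.71 with 8 libraries and -0.33 ± 0.19 without that pair (edgeR adjusted p = 0.476 and 0.226).

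Of the 3 anti-apoptotic genes Mcl1 rose without kd 1 and kd 2, and Bcl2 and Bcl2l1 did not pass. Mcl1 (chr3:95656944-95663179), a short-lived protein that holds BAK in check, was at 991, 845, 293, 329 and 308 CPM in kd 1 to kd 5, against 195, 190 and 180 CPM in WT. The groups did not overlap and the 3 WT libraries were close to each other. The log2 fold change was 1.55 ± 0.50 with 8 libraries (edgeR adjusted p = 0.187) and 0.72 ± 0.15 with 6 (0.018). That call ended without kd 4 (adjusted p = 0.085), WT 2 (0.0858) or WT 3 (0.103).

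Bcl2l1, which encodes BCL-XL, lay below WT in all 5 libraries labelled knockdown, at 51.7 to 71.7 CPM against 73.3 to 80.5 CPM. Its log2 fold change was -0.29 ± 0.17 with 8 libraries and -0.36 ± 0.17 with 6 (edgeR adjusted p = 0.426 and 0.163), and voom called it lower with 6 (0.0417). Bcl2, the founding member of the family, was at 14.3 and 17.9 CPM in kd 1 and kd 2, at 37.5 to 42.9 CPM in kd 3 to kd 5 and at 36.3 to 45.6 CPM in WT. It was low in the first pair, and the other 6 libraries overlapped (log2 fold change -0.43 ± 0.39 with 8 libraries and -0.04 ± 0.18 with 6, edgeR adjusted p = 0.609 and 0.893).

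Per length, the makeup of the family differed more in kd 1 and kd 2 than elsewhere. The ratio of Mcl1 FPKM to Bcl2l1 FPKM was 11.0 and 8.27 in kd 1 and kd 2, 3.13 to 3.95 in kd 3 to kd 5 and 1.58 to 1.83 in WT. The ratio of Bax FPKM to Bcl2 FPKM was 68.1 and 46.8 in kd 1 and kd 2, 24.8 to 43.1 in kd 3 to kd 5 and 18.2 to 21.8 in WT. Both FPKM ratios were higher in each library labelled knockdown than in each WT library, and neither was tested. For Bax over Bcl2 this depended on the scale. Bcl2 was at 6.88 to 7.80 FPKM in kd 3 to kd 5 and at 10.10 to 12.08 FPKM in WT, whereas its CPM overlapped. In CPM, kd 3 had Bax at 116 and Bcl2 at 37.5, and WT 3 had them at 125 and 36.3. There the ratio was thus lower in kd 3 than in WT 3. The 4 BH3-only genes summed to 185 and 196 FPKM in kd 1 and kd 2, 32.5 to 42.9 FPKM in kd 3 to kd 5 and 33.0 to 43.8 FPKM in WT, so kd 3 to kd 5 and WT overlapped.

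**Figure D3:**
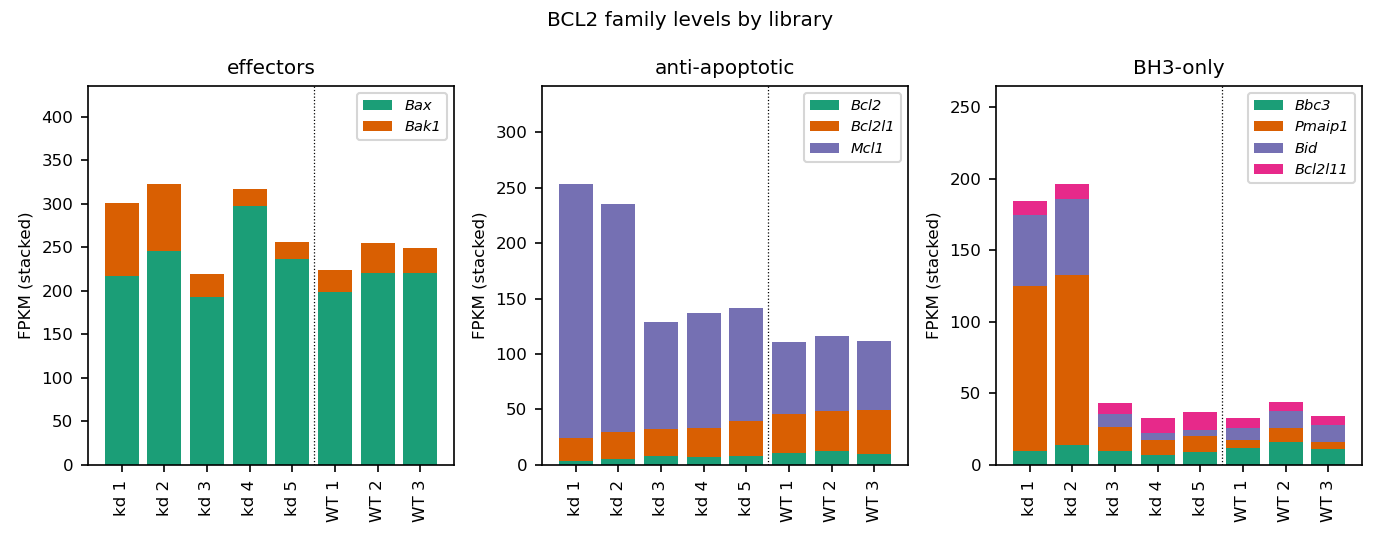
Stacked FPKM of the BCL2 family genes by library, knockdown left of WT, in panels for effectors, anti-apoptotic genes and BH3-only genes. In kd 1 and kd 2 the Mcl1, Pmaip1 and Bid segments were taller than in the other libraries, and the BH3-only sum was 185 and 196 FPKM.

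Of the apoptosome genes, Apaf1 rose without kd 1 and kd 2 and Casp9 did not pass. Apaf1 (chr10:90989311-91082743), the scaffold that cytochrome c assembles into the apoptosome, was at 44.2, 47.9, 20.2, 31.6 and 34.2 CPM in kd 1 to kd 5, against 14.5, 11.2 and 13.5 CPM in WT. The groups did not overlap. Its log2 fold change was 1.45 ± 0.33 with 8 libraries, with the smallest unadjusted p of the 31 genes (0.00215, edgeR adjusted p = 0.137), and 1.14 ± 0.25 with 6 (adjusted p = 0.021). The call with 6 libraries ended without kd 4 (adjusted p = 0.0907), WT 1 (0.0527), WT 2 (0.0907) or WT 3 (0.0852). Casp9, the initiator caspase that the apoptosome activates, was at 45.1 and 39.9 CPM in kd 1 and kd 2, at 20.4 to 21.6 CPM in kd 3 to kd 5 and at 23.0 to 30.7 CPM in WT. The first pair lay above WT and the other 3 lay below it (log2 fold change 0.16 ± 0.35 with 8 libraries and -0.33 ± 0.20 with 6, edgeR adjusted p = 0.852 and 0.245).

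**Figure D4:**
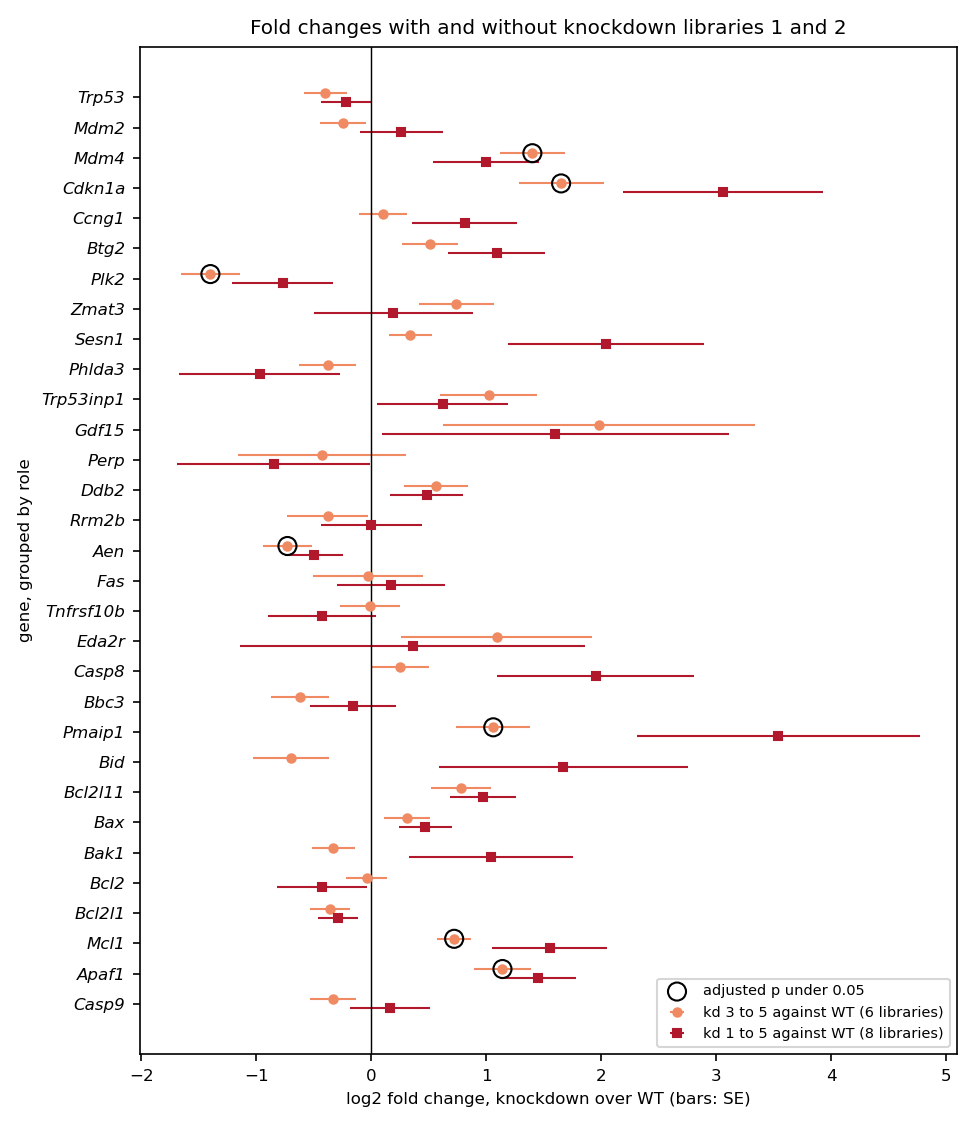
Log2 fold change of the libraries labelled knockdown over WT with its SE for each of the 31 genes, without kd 1 and kd 2 (circles) and with 8 libraries (squares), and rings at the 7 genes past the threshold. Pmaip1, Cdkn1a, Sesn1, Casp8 and Bid differed most between the comparisons, with Pmaip1 at 1.06 for 6 libraries and 3.54 for 8.

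Counted over the 31 genes, the groups did not overlap for 9 genes with 8 libraries, 7 above WT and 2 below, where 22.7% of all genes did not overlap. With 6 libraries 13 of the 31 genes did not overlap, 8 above WT and 5 below, against 43.4% of all genes. Both kd 1 and kd 2 lay above all other 6 libraries for 14 of the 31 genes, as they did for 28.1% of all genes, and below them for 5, as for 31.8% of all genes. The 14 genes included Casp8, Bid, Bak1, Sesn1 and Pmaip1, and the 5 were Zmat3, Phlda3, Tnfrsf10b, Eda2r and Bcl2. The sum of the 20 leukocyte markers was highest in the same pair, and its part in these levels was not tested.

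The wider pathway was followed in 6 lists of 83 other genes, of which 82 were in the table. With 8 libraries 0 of 80 tested genes passed in edgeR's test. At an unadjusted p under 0.05 there were 18, with 11 higher and 7 lower. Of all genes 12.7% were higher and 5.9% lower at that level, 18.6% together. Without kd 1 and kd 2, 13 of 79 tested genes rose and 3 fell, 20.3% in all against the background of 20.4%. Over all genes 11.1% rose and 9.37% fell. The median log2 fold change of these genes was 0.11, against 0.02 over all genes.

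Among 16 tested p53 regulators 4 rose and none fell. Usp7, a deubiquitinase that acts on MDM2 and p53, was at 79.5, 160 and 201 CPM in kd 3 to kd 5, against 64.9, 35.1 and 43.0 CPM in WT (log2 fold change 1.62 ± 0.36, edgeR adjusted p = 0.0195). Atm, the kinase that signals DNA breaks, rose by 1.03 ± 0.29, and the acetyltransferase genes Crebbp and Ep300 by 0.81 ± 0.22 and 1.02 ± 0.31 on the log2 scale. As with Mdm4, Usp7 and Atm were higher in kd 4 and kd 5 than in kd 3. In kd 1 and kd 2 Usp7 was at 48.4 and 45.8 CPM, within the WT range.

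Among 31 tested further p53 targets 4 rose and 1 fell, 16.1% in all against 20.4% of all genes. Thbs1, which encodes the matrix protein thrombospondin 1, was at 105, 124 and 148 CPM in kd 3 to kd 5, against 37.7, 46.4 and 44.5 CPM in WT (log2 fold change 1.55 ± 0.19, edgeR adjusted p = 0.00449). It was at 649 and 390 CPM in kd 1 and kd 2. Tnfrsf1b, a TNF receptor prominent on leukocytes, rose by 1.24 ± 0.22 and Siva1 by 0.63 ± 0.19 on the log2 scale. In kd 1 and kd 2 Tnfrsf1b was at 341 and 258 CPM, above WT, and Siva1 at 114 and 102 CPM, below WT. Igfbp3, a binding protein of insulin-like growth factors, was at 36.2, 29.5 and 42.2 CPM in kd 3 to kd 5, against 116, 83.2 and 172 CPM in WT (-1.78 ± 0.28, edgeR adjusted p = 0.00928). In kd 1 and kd 2 Igfbp3 was at 0.567 and 0.565 CPM.

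Inhibitors of apoptosis rose in 3 of 5 tested genes and fell in none. The lists in this paragraph are small, at 5 to 11 tested genes, and over all genes 11.1% rose and 9.37% fell. Xiap, a direct inhibitor of caspases, was at 42.5, 84.3 and 124 CPM in kd 3 to kd 5, against 40.5, 24.4 and 30.5 CPM in WT (log2 fold change 1.40 ± 0.37, edgeR adjusted p = 0.0323). Birc5, the mitotic survivin gene, rose by 0.63 ± 0.18 and Birc6 by 0.77 ± 0.21. Among 7 death receptor adaptors Cflar, the inhibitor of caspase-8 activation, rose by 1.36 ± 0.32 and Traf2 fell by 1.00 ± 0.28 on the log2 scale. Of 9 further BCL2 family genes Bcl2l2 alone rose (1.83 ± 0.52), and it was at 51.6, 125 and 289 CPM in kd 3 to kd 5, against 54.6, 37.0 and 39.7 CPM in WT. In kd 1 and kd 2 Bcl2l2 was at 10.6 and 12.3 CPM, below WT. Its exons overlap a second protein-coding gene model on the same strand. Of 11 caspase and executioner genes Casp2 alone fell, by 0.96 ± 0.24 on the log2 scale (edgeR adjusted p = 0.0295). Of the 15 genes named here from these lists, 14 lost their call without kd 4 (edgeR adjusted p from 0.0614 to 0.158), the exception being Thbs1. Without WT 2, 13 lost it (0.0541 to 0.177), and without WT 3, 13 lost it (0.0658 to 0.151). The loss was general, as 1.16% of all genes were called without kd 4, 2.7% without WT 2 and 1.9% without WT 3. Without kd 5 or WT 1, 10 calls were lost (0.0527 to 0.121 and 0.0543 to 0.121), where 10.7% and 8.94% of all genes were called. On log2(FPKM + 1) 8 of the 15 calls were lost (Xiap, Bcl2l2, Ep300, Crebbp, Birc6, Siva1, Birc5 and Atm, with adjusted p from 0.05 to 0.102), so none of the 3 inhibitors of apoptosis kept its call there. Without a composition factor Ep300, Siva1 and Birc5 lost theirs (0.0532 to 0.0589), and without the filter on low counts Bcl2l2 did (0.0631). With 8 libraries 14 of the 15 genes had the same sign of fold change, the exception being Traf2 at 0.10 ± 0.62, with edgeR adjusted p from 0.148 to 0.951.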

How the data were processed

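Gene expression was measured in 8 libraries made with Smart-seq2 and a transposon, per the labels' protocols, and the submitters' processing notes name HISAT, Bowtie2 and GRCm38.p6. No counting tool or annotation is named in these sources. The deposited table holds the authors' expected counts, not normalised (17.6% to 19.8% of values not whole). FPKM was scaled by the authors to length and library size, TPM by the authors to a total of 1000000, and the deposited signal is the count times 1 factor per library, per the file headers. TPM, that signal and the authors' group means were not used for results, and 0 columns belonged to other samples. Without molecular identifiers amplified copies count as reads, and Smart-seq2 does not mark strand.

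Expected counts were rounded, filtered with filterByExpr, scaled with TMM and fitted in edgeR 4.0.16 (R 4.3.3, quasi-likelihood, robust), two-sided, with Benjamini-Hochberg adjustment over all genes tested and a threshold of 0.05. Log2 fold changes carry their standard errors. Printed CPM values use the TMM sizes of all 8 libraries, and the fit of 6 libraries computed its own factors. The floor for a count of 0 is 3 counts and covers counting error only. Alternatives used DESeq2 1.42.0 and limma 3.58.1. The fits were checked on simulated counts. All library pairs differed beyond sampling noise (smallest chi-square per degree of freedom 29.5). The 31 genes, the lists of other pathway genes and markers, and the comparison of 6 libraries were chosen with earlier results of these data known. All 31 genes are named, and from each pathway list up to 4 called genes with the smallest p with 6 libraries. Gene coordinates and promoters are from RefSeq (GRCm38.p6), exon overlaps from GENCODE M21 (GRCm38). Of the 31 genes, 8 share exon sequence positions with another annotated gene.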

Additional observations from a re-analysis of the deposited data

How the results depend on the processing

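With 8 libraries, 0 genes in all and 0 of the 31 genes were called by edgeR, against 2192 and 5 by DESeq2 and 3720 and 8 by voom with quality weights. Leaving out each library in turn gave 0 to 2 genes in all and 0 to 0 of the 31. With 6 libraries the counts of 3090 and 7 became 6875 and 16 with voom, and 180 to 5982 and 0 to 11 without each library in turn. Over all genes there were 5982 calls without kd 3, 180 without kd 4, 1663 without kd 5, 1388 without WT 1, 417 without WT 2 and 294 without WT 3. Scaling moved the median log2 fold change of all genes from 0.07 to -0.17 without a composition factor, to -0.21 on log2(FPKM + 1) and to -0.35 on log2(FPKM + 0.1) with 8 libraries, and from 0.02 to -0.10 on log2(FPKM + 0.1) with 6.

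The replicate numbers did not pair the libraries (correlation of deviations -0.0733, 0.129 and -0.0297 for numbers 1, 2 and 3). The replicate block with 8 libraries called 0 genes and turned the log2 fold change of Trp53inp1 to -0.058, Bbc3 to 0.084, Zmat3 to -0.86, Rrm2b to 0.27, Eda2r to -2.96, Bcl2l2 to -1.22, Crebbp to -0.060 and Siva1 to -0.084. No paired analysis was possible with 6 libraries because the groups then share 1 number.

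Other signs turned in genes that edgeR did not call in the same comparison, and the cause was not tested. Of these genes Traf2, Bcl2l2 and Siva1 were called with 6 libraries, and their signs turned in fits of 8. With 8 libraries and voom the log2 fold change was -0.26 for Casp9, -0.18 for Bak1, -0.57 for Bid, -0.15 for Fas, -0.079 for Mdm2 and -0.85 for Traf2. Without a composition factor it was -0.16 for Casp9, -0.10 for Fas, -0.063 for Mdm2 and -0.29 for Traf2. On log2(FPKM + 1) it was -0.15 for Casp9, -0.066 for Fas, -0.077 for Zmat3, -0.12 for Mdm2, -0.083 for Bcl2l2, -0.44 for Traf2 and -0.047 for Siva1. On log2(FPKM + 0.1) it was -0.17 for Casp9, -0.091 for Fas, -0.29 for Zmat3, -0.13 for Mdm2, -0.18 for Bcl2l2, -0.51 for Traf2 and -0.048 for Siva1. With a CPM of at least 1 in 3 libraries Rrm2b was at 0.0042. With 6 libraries Ccng1 was at -0.0081 with voom, -0.0068 on log2(FPKM + 1) and -0.0091 on log2(FPKM + 0.1), and Fas at 0.0088 and 0.0085 on the FPKM scales. Leaving out each library gave ranges across 0 for Casp9 (-0.040 to 0.29), Zmat3 (-0.042 to 0.63), Rrm2b (-0.21 to 0.24), Eda2r (-0.26 to 0.78) and Traf2 (-0.30 to 0.35) with 8 libraries, and for Fas (-0.24 to 0.16), Perp (-0.91 to 0.099), Bcl2 (-0.12 to 0.045), Tnfrsf10b (-0.17 to 0.14) and Ccng1 (-0.094 to 0.21) with 6. The alternatives for the 15 pathway genes were chosen after seeing the data. Depth limits Eda2r and Gdf15, which had no count in some libraries.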
